A study of Homo sapiens with 6 samples.

Results

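The kallikrein-related peptidases are secreted serine proteases encoded side by side on human chromosome 19. The genes described here are 9 of them: KLK5, KLK6, KLK7, KLK8, KLK10, KLK11, KLK12, KLK13 and KLK14. Every probe set annotated to only one of these genes was taken, with the current symbol found through the Entrez identifier. That gave 16 of the 54613 probe sets on the array that are not manufacturer's controls. The genes were selected on their measured levels and log2 differences between GDC-0941 and control on these arrays, so those values are given as a description. No p-value is given for a member, and counts of members past a threshold stand only beside the share of the whole array and support nothing.

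RNA came from the human cell line T47D, derived from a luminal breast cancer, and was measured on 6 Affymetrix arrays. In 3 samples the cells had received GDC-0941 for 6 hours. This compound inhibits the class I PI3 kinases, which relay growth factor signals to AKT. The other 3 samples were controls, labelled as having received no agent, and whether they received the solvent is not said. The labels state the dose as 1 mM, a unit that is uncertain because a micro sign may have been lost. Nothing says whether replicates were separate cultures, so the spread between them may be technical. Levels are log2 RMA signals, on which a difference of 1 is a doubling. RMA sets each array to a common distribution, so a level is relative to everything else measured, and no detection call comes with it. The brightness of one probe set cannot be ranked against that of another.

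Kallikreins are made as inactive precursors, exported, and activated by removal of a short leading peptide, in part by one another. In skin, KLK5, KLK7 and KLK14 cut the desmosomal proteins that hold the outermost cells together, under the control of inhibitors such as SPINK5. In breast and prostate epithelium many members respond to steroid hormones. KLK10 was first described as NES1, a gene expressed in normal mammary epithelium and often silent in breast tumours.

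Short stretches before the start of KLK10 and of its next 2 neighbours KLK11 and KLK12 are shown because KLK10 had the largest difference of the family and these are the genes that follow it along the chromosome. Each gives the 30 bases before an annotated start, from RefSeq (GRCh38.p14, minus strand, 5′ to 3′), with CG dinucleotides, the targets of DNA methylation, in capitals.
KLK10, chr19:51019862-51019891: gggagaagcctgtattccagggcccctccc
KLK10, chr19:51019710-51019739: ttaaaagggaaggtccCGccaggggtccct
KLK11, chr19:51027647-51027676: ctaggtttgaggccagggctggctgctgtc
KLK11, chr19:51026617-51026646: gcctgcctggtgcctggcacctggCGctcc
KLK12, chr19:51035003-51035032: agttaagagctttgtcagtggtctgtctgg
KLK10 and KLK11 each have 2 listed starts and KLK12 has 1. The longer windows around these starts are described with the promoters, after the levels.

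KLK10 read 2.33-fold higher under GDC-0941 on 1 of its 2 probe sets, and the other 15 probe sets of the family, the second one for KLK10 included, had differences of at most 0.12 in size. On the KLK10 probe set 209792_s_at the treated arrays read 10.69, 10.56 and 10.71 and the control arrays 9.51, 9.32 and 9.45. The lowest treated array lay 1.04 above the highest control, so the groups were far from overlapping. The means were 10.65 ± 0.08 and 9.43 ± 0.10 (SD, n = 3 each). Their difference was 1.22 ± 0.07 (SE), with a 95% interval of 1.07 to 1.38, which is 2.09-fold to 2.60-fold. A larger rise was seen in 41 of the 54613 probe sets. With 1 probe set a gene, 11 of 19775 genes had a larger one. KLK10 was selected with this difference known, so its place among them is a description and supports nothing. In RNA from whole cultures, more cells making KLK10 and more KLK10 RNA per cell cannot be told apart.

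**Figure D1:**
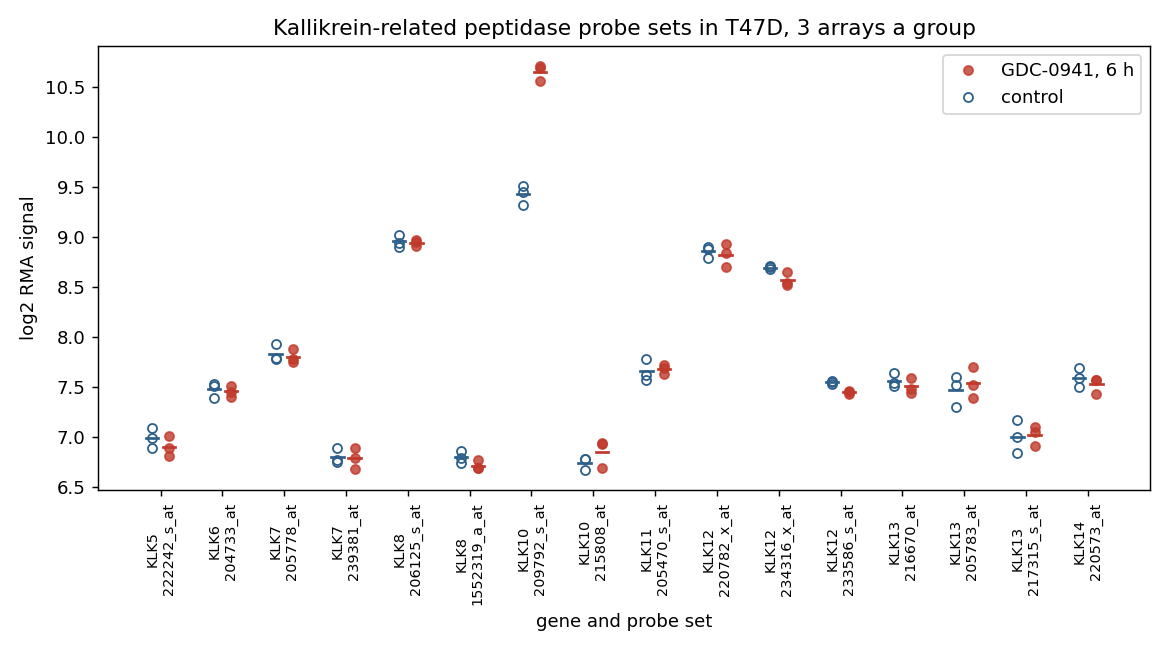
The log2 RMA signal of the 16 kallikrein probe sets is plotted for every array, open circles for control and filled for GDC-0941, with short lines at the group means. The KLK10 probe set 209792_s_at stands at 9.32 to 9.51 in controls and 10.56 to 10.71 after treatment, and every other probe set has its groups close together.

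The second KLK10 probe set, 215808_at, was designed on another transcript record. It read 6.69, 6.94 and 6.93 under GDC-0941 and 6.78, 6.78 and 6.67 in controls. These groups overlapped, and the difference was 0.11 ± 0.08 (SE), with a 95% interval of -0.06 to 0.28. Whether 215808_at reads the KLK10 messenger RNA in these cells was not tested, and the higher reading of the gene therefore rests on 1 of its 2 probe sets. The suffix _s_at is the manufacturer's mark for probes that match more than one transcript, and the annotation used here names no gene but KLK10 for this one.

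Counted over the family, 1 of the 16 probe sets passed an adjusted p of 0.05 as higher and none as lower in limma's fit over all probe sets. At an unadjusted p under 0.05 the counts were also 1 higher and 0 lower, beside 7580 higher and 8537 lower of all 54613. At the adjusted threshold 18.8% of all probe sets passed, 8.88% as higher and 9.89% as lower. The share was 7.18% below the median level, where 5 of the 16 kallikrein probe sets stood, and 30.4% at or above it. Since the genes were selected with this contrast known, nothing is read from their count. The median difference of the 16 was -0.025, against -0.009 for all probe sets.

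The 15 probe sets that did not pass had differences from -0.12 to 0.11, 4 above 0 and 11 below. With the arrays centred on their hybridisation controls instead, which raised all differences together, the 15 lay between 0.05 and 0.28. Without that centring, the 95% intervals of the 15 together ran from -0.26 to 0.28. On the RMA scale the intervals thus leave room for changes between 0.84-fold and 1.22-fold. The standard errors of the 15 were 0.06 to 0.09 there, and the SD within a group was 0.01 to 0.17. A probe set that misses the threshold has not been shown to be unaffected. The size of change that these arrays could still hold on the RMA scale is what the intervals give, and another centring shifts it.

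**Figure D2:**
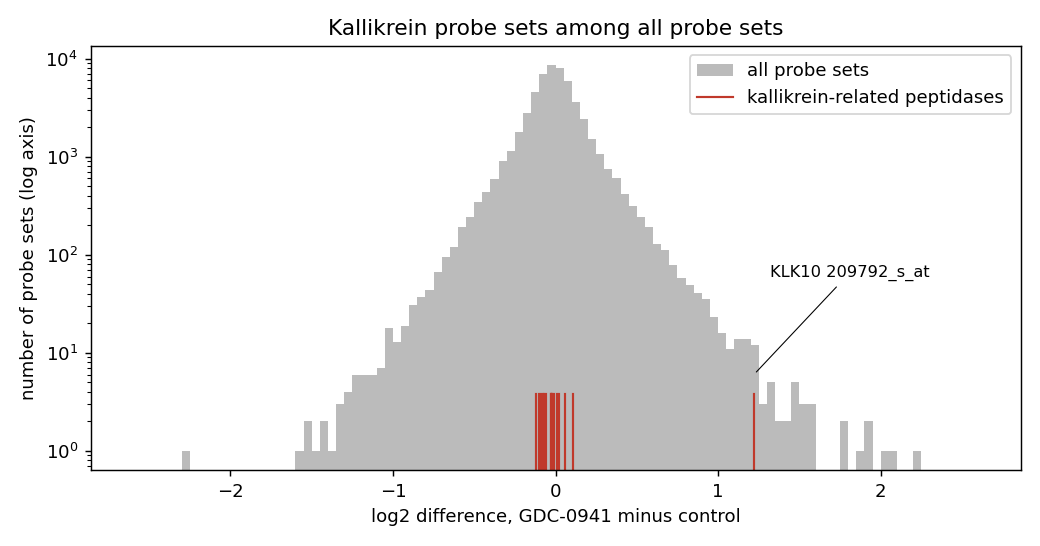
Grey bars count all 54613 probe sets by their log2 difference, GDC-0941 minus control, on a log axis, and red ticks mark the 16 kallikrein probe sets. The KLK10 probe set 209792_s_at lies at 1.22 in the right tail, and the other 15 lie between -0.12 and 0.11.

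Among the proteases that shed skin cells, treated and control arrays overlapped on every probe set. KLK5, a trypsin-like enzyme that activates other members, read 6.81, 6.89 and 7.01 under GDC-0941 and 6.99, 6.89 and 7.09 in controls, overlapping, with a difference of -0.08 ± 0.07 (SE). KLK7, the chymotrypsin-like enzyme of this group, had differences of -0.03 ± 0.07 and -0.02 ± 0.07 (SE) on its 2 probe sets. On 205778_at KLK7 read 7.78, 7.88 and 7.75 under treatment and 7.93, 7.78 and 7.79 in controls. KLK14 read 7.43, 7.57 and 7.57 against 7.50, 7.69 and 7.59, a difference of -0.07 ± 0.07 (SE).

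KLK6 and KLK8 are the members best known from the nervous system, under the names neurosin and neuropsin. KLK6 read 7.45, 7.51 and 7.40 under GDC-0941 and 7.51, 7.53 and 7.39 in controls, a difference of -0.02 ± 0.06 (SE). KLK8 had 2 probe sets, 206125_s_at and 1552319_a_at, with differences of -0.01 ± 0.06 and -0.09 ± 0.06 (SE). Groups overlapped on all 3 probe sets. On 206125_s_at the 6 arrays stayed within 8.90 to 9.02. A further probe set is annotated to both KLK8 and KLK9 and so belongs to neither here. Its values were 6.76, 6.83 and 6.65 under treatment and 6.61, 6.54 and 6.78 in controls, a difference of 0.10 ± 0.08 (SE).

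KLK11, KLK12 and KLK13 follow KLK10 in the gene order of the locus, with KLK9 on its other side. KLK11 is a trypsin-like member also found in breast and prostate. It read 7.72, 7.69 and 7.63 under GDC-0941 and 7.78, 7.57 and 7.62 in controls, with a difference of 0.02 ± 0.07 (SE) and an interval of -0.13 to 0.18. Its groups overlapped. The 3 KLK13 probe sets had differences of -0.06 ± 0.07, 0.06 ± 0.09 and 0.01 ± 0.09 (SE), and each had overlapping groups.

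KLK12 gave the other 2 probe sets whose groups did not overlap, both lower under treatment. On 233586_s_at the treated arrays read 7.46, 7.45 and 7.43 and the controls 7.55, 7.56 and 7.53, a gap of 0.08 and a difference of -0.10 ± 0.06 (SE). On 234316_x_at they read 8.52, 8.65 and 8.54 against 8.70, 8.68 and 8.71, a gap of 0.03 and a difference of -0.12 ± 0.06 (SE). The third KLK12 probe set, 220782_x_at, overlapped, with a difference of -0.03 ± 0.07 (SE). The first of these had an SD of 0.01 in each group, far under its fitted standard error, because limma draws a variance estimated from 3 arrays towards that of all probe sets. Groups were free of overlap on 34.3% of all probe sets, 15.6% higher and 18.8% lower, beside 3 of these 16, so such gaps were common on the array. The suffix _x_at marks probes that may also bind other sequences.

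The remaining genes of the locus were read on 18 probe sets for 6 genes, counting KLKB1, the plasma kallikrein gene that lies elsewhere. None of the 18 passed in limma, where 18.8% of all probe sets did. At an unadjusted p under 0.05, 2 were higher, 1 for KLK2 and 1 for KLK3. Of all 54613 probe sets, 7580 were higher and 8537 lower at that threshold, so nothing is read from these 2. KLK3 encodes prostate-specific antigen, and KLK2 its close relative and activator. The KLK2 probe set 209855_s_at read 7.08, 7.22 and 7.38 under treatment and 7.07, 7.02 and 6.93 in controls, a difference of 0.22 ± 0.08 (SE). The KLK3 probe set 204582_s_at read 6.59, 6.64 and 6.53 against 6.41, 6.43 and 6.42, a difference of 0.16 ± 0.06 (SE). Both had groups that just failed to meet, with gaps of 0.01 and 0.10, as 15.6% of all probe sets had higher groups without overlap. The other probe sets of the same genes lay between -0.08 and 0.06. KLK4, an enzyme of tooth enamel that is also made in prostate, had 5 probe sets between -0.09 and 0.07. KLK1 had a difference of 0.01 ± 0.07 (SE), and the 4 of KLK15 lay between -0.05 and 0.12.

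**Figure D3:**
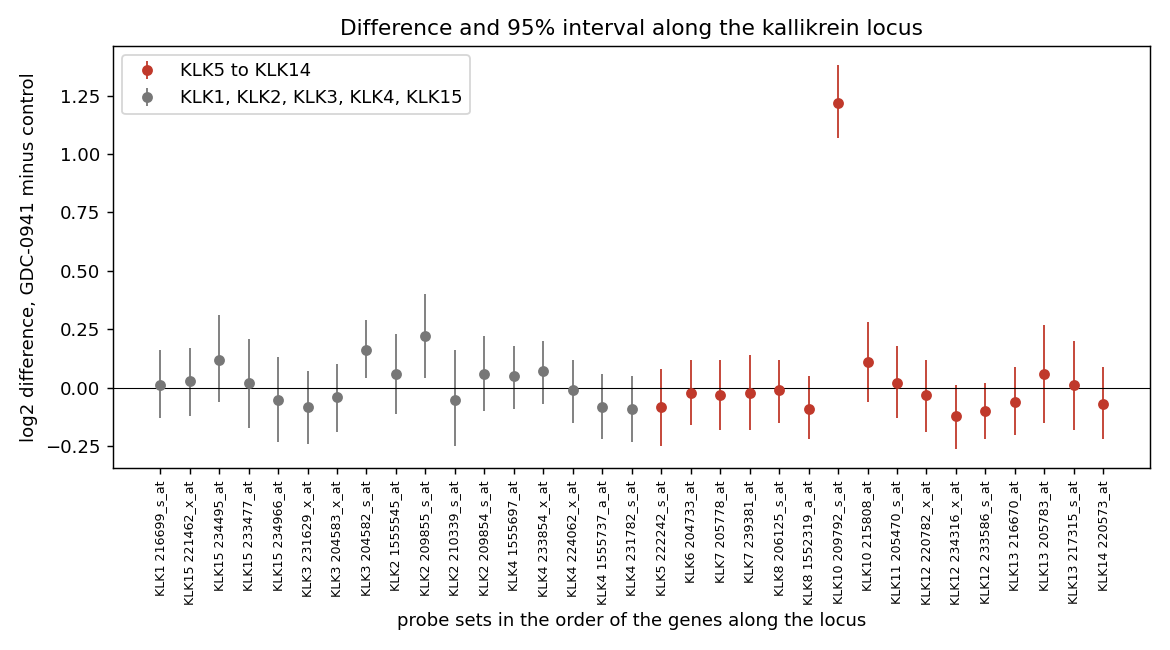
Each point is the log2 difference of one probe set, GDC-0941 minus control, with its 95% interval, in the order of the genes from KLK1 to KLK14 along chromosome 19. Red marks KLK5 to KLK14 and grey the other genes of the locus; the one interval far from 0 is that of the KLK10 probe set 209792_s_at, from 1.07 to 1.38.

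Genes around the kallikrein locus were read as well. Of the 5 protein-coding genes on each side that are not kallikreins, 7 had a probe set of their own. None was higher and 2 were lower in the fit with 1 probe set a gene, where 27.8% of genes passed, 12.1% higher and 15.6% lower. At an unadjusted p under 0.05 there were 0 higher and 2 lower. Shares of all genes are given at the adjusted threshold only, here and for the lists below, so nothing is read from their unadjusted counts. CLEC11A, a secreted growth factor of the lectin family, fell by 0.27 ± 0.06 (SE) on the log2 scale (adjusted p = 0.00544 in limma), on 1 of its 3 probe sets. ACP4, an acid phosphatase, fell by 0.17 ± 0.06 (SE, adjusted p = 0.0493 in limma), and lost that call without any one of the 6 arrays (adjusted p 0.0652 to 0.192) and with the replicate block (0.0668). No gene on the KLK14 side passed, SIGLEC9, SIGLEC7 and SIGLECL1 reading differences of -0.03, 0.05 and 0.07.

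Promoter windows were found in the RefSeq table for 8 of the 9 genes, 15 windows in all, each running from 250 bases before a start to 50 after it. The 2 KLK10 windows held 9 and 11 CG dinucleotides, those of KLK11 held 3 and 11, and that of KLK12 held 7. Over the family the count ran from 2 in a KLK14 window to 23 in a KLK13 window, against a median of 14 over 35114 windows. KLK10 is thus in the middle of its family by this measure, with fewer in 41.6% and 45.3% of all windows. Motifs were searched on both strands, some of them within others. TGTTTAC and TGTTTGC are forkhead motifs (the FOXO factors that AKT restrains bind such sites). AGAACA is the half-site of some steroid receptors, such as the glucocorticoid receptor. It lies within the palindrome those receptors bind as dimers (searched in its exact form, a pair of inverted half-sites 3 bases apart). The oestrogen receptor binds another motif, which was not searched. TGANTCA is the AP-1 motif and CACGTG an E-box. None of the motifs searched was found in any window of the 8 genes. Among all 27303 genes with a window the shares were 4.19%, 4.76%, 17.5%, 0.00366%, 9.37% and 8.78% in that order. This says only that those letters are absent from these windows.

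Inhibitors that can bind kallikreins were measured for 12 of 15 listed genes. SPINT1, which blocks matriptase and hepsin, was the one that passed, at 12.29, 12.15 and 12.28 under GDC-0941 and 12.03, 12.00 and 12.09 in controls. Its difference was 0.20 ± 0.06 (SE, adjusted p = 0.0254 in limma) without overlap, on 1 of its 2 probe sets. The call was lost without treated replicate 1 or 3 or control replicate 1 or 2 (adjusted p 0.0637 to 0.107), and with its 2 probe sets averaged (0.109). No inhibitor was lower, also at an unadjusted p under 0.05 (0 of 12). Beside this list and those below, 12.1% of all genes passed as higher and 15.6% as lower at an adjusted p under 0.05. The list's median was 0.007, beside -0.017 for all 19775 genes. SERPINA1, SPINT2, SLPI and WFDC2, which did not pass, had differences of 0.10, -0.02, 0.04 and -0.02.

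Receptors and substrates of kallikreins were measured for 15 of 17 genes. CDH1, the E-cadherin of epithelial junctions, passed with 13.23, 13.20 and 13.23 under treatment and 13.04, 13.01 and 13.04 in controls. The difference was 0.19 ± 0.05 (SE, adjusted p = 0.0184 in limma), on 1 of 2 probe sets. Without treated replicate 3, control replicate 1 or control replicate 2 the adjusted p was 0.0557 to 0.0797. No member was lower, and at an unadjusted p under 0.05 there were 4 higher and 0 lower. DSC1, the desmocollin of upper skin layers, had the largest difference of the list, 0.27 ± 0.09 (SE, adjusted p = 0.0519), and was picked out after its values were seen. It passed without treated replicate 3 (adjusted p = 0.038), without control replicate 2 (0.0158), with the replicate block (0.0133), with trend and robust estimation (0.0427) and with hybridisation control centring (6.77e-05). It did not pass without treated replicate 1 or 2, without control replicate 1 or 3, or after quantile normalization. Its groups overlapped, the lowest treated array reading 6.01 and the highest control 6.03. DSC1 stood below the median level, with a mean of 5.99. Its partner DSG1 and corneodesmosin (CDSN) had differences of 0.12 and -0.01. The list's median was 0.005.

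Other membrane-bound or secreted serine proteases of epithelia were measured for all 15 listed genes. TMPRSS13 passed as higher, at 9.92, 9.90 and 9.96 against 9.66, 9.76 and 9.70. The difference was 0.22 ± 0.06 (SE, adjusted p = 0.0121 in limma), on 1 of its 2 probe sets. TMPRSS13 lost the call without treated replicate 3 or control replicate 1 (adjusted p 0.0639 and 0.0597). None was lower with 1 probe set a gene, with 2 higher and 2 lower at an unadjusted p under 0.05. In the fit over all probe sets, 1 of the 4 TMPRSS2 probe sets was lower. ST14, the gene of matriptase, differed by -0.04 ± 0.06 (SE, adjusted p = 0.691). The median of this list was -0.001, and its differences ran from -0.15 to 0.22.

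Steroid receptors and genes that respond to them were measured for 15 of 18 genes, and 5 passed as higher and 1 as lower. The shares over all genes were 12.1% higher and 15.6% lower. GREB1, an oestrogen response gene, read 12.36, 12.35 and 12.25 under GDC-0941 and 11.84, 11.70 and 11.37 in controls. Its difference was 0.68 ± 0.10 (SE, adjusted p = 0.000314 in limma), on 1 of 3 probe sets, and 0.25 with the 3 averaged. NR3C1, the glucocorticoid receptor, rose by 0.63 ± 0.06 (adjusted p = 1.72e-05), on 4 of 5 probe sets. NDRG1, a hormone- and stress-responsive gene, rose by 0.44 ± 0.07 (adjusted p = 0.000436). The progesterone receptor PGR (0.42 ± 0.05, 2 of 2 probe sets) and the retinoic acid receptor RARA (0.26 ± 0.06, 2 of 5) made up the count, RARA losing its call with its probe sets averaged (adjusted p = 0.367). The gene that fell was TFF1, a classical oestrogen target, by 0.36 ± 0.07 (adjusted p = 0.00132), a call that was lost, like that of CLEC11A, with hybridisation control centring. ESR1 itself differed by -0.14 ± 0.06 (adjusted p = 0.109) and passed only without treated replicate 1 (adjusted p = 0.0404) and with trend and robust estimation (0.0223). The list's median was 0.089.

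Cornified envelope genes, which are made beside kallikreins in differentiating skin, had 6 of 14 lower and none higher (8 lower and 0 higher at an unadjusted p under 0.05). Over all genes, 15.6% passed as lower and 12.1% as higher at an adjusted p under 0.05. The share of all genes at the unadjusted threshold is not given, so nothing is read from the unadjusted counts. Of the 14 genes, 10 read below the median level, and no detection call says whether these were expressed. Without control replicate 2 the count of lower genes was 3, without control replicate 1 it was 8. DMKN, a secreted protein of the upper epidermis, fell by 0.36 ± 0.07 (SE, adjusted p = 0.00289 in limma). The keratin KRT10 fell by 0.35 ± 0.06 (adjusted p = 0.000737) on all 3 of its probe sets, and involucrin (IVL) by 0.28 ± 0.06 (adjusted p = 0.00366). Their median was -0.159. None of these calls held with the arrays centred on hybridisation controls, which left 0 lower and 1 higher. That setting moved the median of all probe sets from -0.009 to 0.161, and KLK10 to 1.39.

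**Figure D4:**
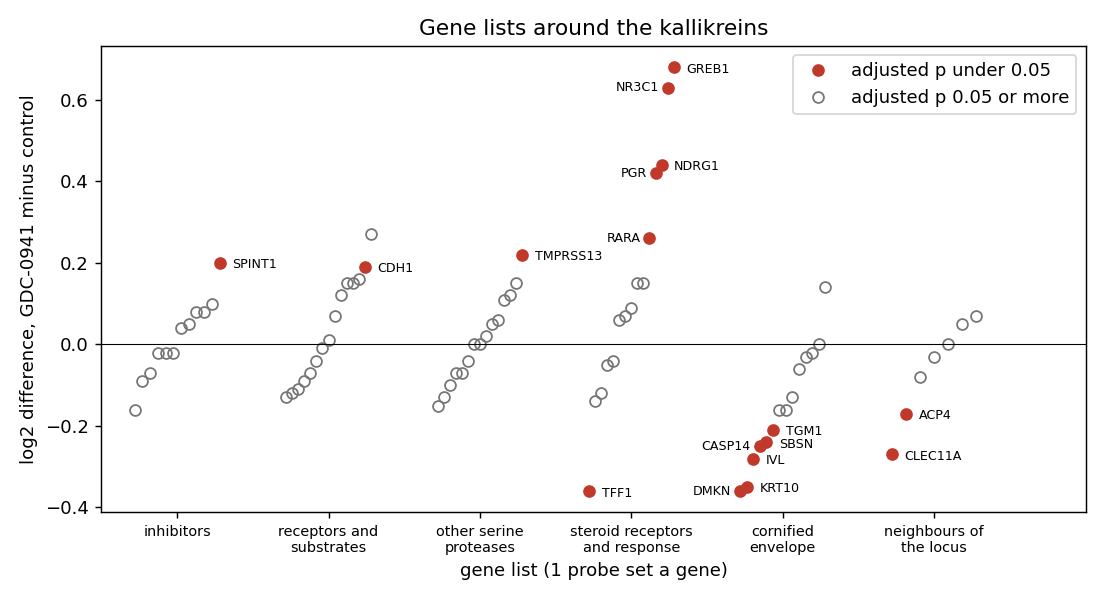
Log2 differences, GDC-0941 minus control, are plotted for the measured genes of 6 lists, 1 probe set a gene, filled where the adjusted p over all genes was under 0.05. The points lie between -0.36 (DMKN and TFF1) and 0.68 (GREB1). With its probe sets averaged, GREB1 stood at 0.25.

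The pattern most like that of KLK10 over the 6 arrays was sought among 19760 genes outside the family. By Pearson's r the nearest were CDH1 (0.9998), the translation factor subunit EIF3L (0.9994), the membrane repair protein MYOF (0.9994), the histone gene H2BC5 (0.9991) and the Rag GTPase RRAGD (0.999). All 6 arrays fall into the same 2 groups for every gene, and 1168 genes (5.91%) had an r above 0.95. Likeness of shape was not likeness of size, as the differences of these 5 were 0.19, 0.18, 0.43, 0.49 and 0.47. Within the family, r to the KLK10 probe set ran from -0.98 (KLK12, 233586_s_at) to 0.49 (the second KLK10 probe set).

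Markers of the labelled type and of others were read as well, on probe sets whose levels share no common scale, so they do not settle the type. The 10 luminal markers read 11.57 to 14.36 over all arrays, and 5 passed as higher and 2 as lower. Their differences ran from -0.23 (KRT8) to 0.97 (ERBB3). The 4 markers of stratified epidermis read 4.19 to 12.40 under GDC-0941 and 4.08 to 12.82 in controls. The upper end of both ranges came from KRT10. It fell within the numbers spanned by the luminal markers, but levels of different probe sets are not ranked against each other. KRT10 and IVL were lower, as given above, and KRT1 and FLG differed by -0.02 and 0.15 and did not pass. Of the 4 basal or myoepithelial markers measured, KRT5, KRT14 and MYLK had means of 8.04, 6.17 and 7.53 and did not pass. ACTA2, the smooth muscle actin of myoepithelial cells, had a mean of 9.68 and fell by 0.34 ± 0.06 (SE, adjusted p = 0.0019 in limma), on 1 of its 3 probe sets. The 4 markers of stroma and blood read 6.00 to 11.03 under GDC-0941 and 6.12 to 10.47 in controls. Among them COL1A1 was higher by 0.56 ± 0.07 (SE, adjusted p = 6.53e-05 in limma). VIM, PTPRC and PECAM1 did not pass and differed by -0.17, -0.05 and 0.01. The part of COL1A1-expressing cells in the result was not tested. Arrays correlated at r = 0.997 to 0.9983 within a group and at 0.9917 to 0.9942 between groups.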

How the data were processed

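The deposited table holds log2 RMA signals, 1 column per array, for 54675 probe sets, 62 of them manufacturer's controls. The authors made them with RMA, per the submitters' processing notes, and the sources read for this work leave its version unstated. That they are on a log2 scale was inferred from their range, 3.00 to 14.81. Platform annotation named 1 gene for 41091 probe sets. For 41037 of them the Entrez identifier was found in RefSeq (GRCh38.p14) and the symbol taken from there, changed or not.

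GDC-0941 was compared with control in limma 3.58.1 (R 4.3.3; lmFit, eBayes, two-sided, Benjamini-Hochberg), on all 54613 probe sets for the kallikreins. For lists the fit used 19775 genes, each by its brightest probe set. No filter was applied. The fit was tested on simulated data with 50 changed probe sets for each of 4 sizes. It recovered 2%, 64%, 98% and 100% of log2 changes of 0.25, 0.5, 1 and 2. Small changes were thus mostly missed, in a setting with far fewer changed probe sets than passed in the real data.

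Members and lists were chosen with earlier results of these data known. Named genes are the members, the other kallikreins, the 3 called genes of each list with the largest change and the 5 most like KLK10. All others named were chosen after their values were seen. Results were recomputed without each array in turn, with replicate number as a block, after quantile normalization, with hybridisation control centring (18 probe sets), with trend and robust estimation, with a level filter at the array median, and with a gene's probe sets averaged. Figures used matplotlib 3.10.9. The number of arrays, 3 per group, limits precision.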

Additional observations from a re-analysis of the deposited data

How the results depend on the processing

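The difference of the KLK10 probe set 209792_s_at, on which the gene was selected, is given as a description: 1.17 to 1.27 on leaving out an array and 1.39 with hybridisation control centring. That centring gave 2 kallikrein probe sets higher (the second KLK10 one at 0.28), and moved all probe sets to 12875 higher and 1445 lower, 89.9% higher against 47.3%. Under it higher and lower counts were 4 higher for inhibitors, 7 for receptors and substrates, 5 for other proteases, 10 and 0 for the steroid list, 1 and 0 for cornified genes and 1 and 0 for neighbours. With the replicate block, 2 receptors and substrates were higher and 1 neighbour lower, against 1 and 2. Deviations from the group means correlated at -0.344, 0.139 and -0.027 for equal replicate numbers, and at -0.363 to 0.354 for unequal ones. With 3 arrays a group the deviations are tied to one another, so these values cannot settle whether samples were paired. Averaged probe sets gave 0 inhibitors and 2 receptors and substrates higher, 1 protease and 2 steroid genes lower. Quantile normalization gave 3 receptors and substrates higher and 1 protease lower, and trend with robust estimation 3 higher there, 2 steroid genes lower and 1 neighbour lower. The level filter gave 2 receptors and substrates higher, 1 protease lower and 3 cornified genes lower. Leaving out one array gave 0 to 1 inhibitors, 0 to 2 receptors and substrates and 0 to 1 proteases higher, and 1 to 2 steroid genes, 3 to 8 cornified genes and 1 to 1 neighbours lower. The causes were not tested. Motif counts in the 250 bases before the start could only be 0, because these bases lie within the windows where none was found. Precision is limited by 3 arrays a group, and dim probe sets have no detection call.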
